A study of Mus musculus with 13 samples.

Results

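The comparison was between small-intestinal epithelial cells of the Lgr5 lineage sorted with and without a gate on the surface protein CD24, all collected 8 weeks after the lineage was marked. It used 4 of the series' 13 libraries, chosen by their labels alone: 3 libraries of traced cells from the CD24+ fraction, called gated here, and the 1 library of traced cells for which no fraction is named, called ungated. All came from small intestine of mice that carry Lgr5-CreERT2 (C57Bl6/J) together with the reporter Rosa26LSL-YFP, in which tamoxifen lets Cre, made where the stem cell gene Lgr5 is active, switch on YFP in stem cells and in everything they later produce. YFP+ cells were sorted, and CEL-seq, which counts messenger RNA 3' ends of single cells with molecular barcodes, was run on them. Not every Lgr5+ cell need recombine in such a line, and the labels do not say how many mice gave a library, so the replicates may be technical.

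Each library held 96 cell barcodes. The 301 cells with at least 3000 transcripts, not counting spiked-in control RNA, were kept: 87, 65 and 69 in gated replicates 1, 2 and 3 and 80 in the ungated library, with median transcripts per cell of 14458, 7666, 9135 and 10155. The same 96 barcode names serve every library, so shared names cannot show shared cells; none of the 892 cells kept over 13 libraries had the same content as a cell of another. Column names in a combined deposited table place gated replicate 1 in a first set and replicates 2 and 3 in a second; the ungated library is in neither, so a set effect cannot be told apart from the gate. With 1 ungated library no test was possible, and every difference is judged by the spread of the 3 gated libraries. Intervals given for single libraries are 95% exact intervals and cover counting error only.

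CD24 is a small glycoprotein anchored in the cell membrane. In the intestine it is known as a sorting handle for crypt secretory cells: Paneth cells, which release antimicrobial proteins beside the stem cells, enteroendocrine cells, which release hormones, and tuft cells, which sense luminal chemicals. Absorptive enterocytes are known to carry less of it.

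The transcript of the sorted antigen, Cd24a (chromosome 10, 43578284 to 43584265, plus strand, mm10), was higher in all gated libraries. It stood at 1521, 2038 and 2030 CPM, its count scaled to the total of all genes in the library, in gated replicates 1, 2 and 3, a mean of 1863 ± 296 (SD, n = 3), and at 544 CPM in the ungated library (interval 498 to 594), a ratio of 3.42. The median cell held 9.14, 13.7 and 16.5 Cd24a transcripts per 10000 of its own in the gated libraries and 3.33 in the ungated one. Every gated library was thus above the ungated library on both measures, and the lowest gated library was 2.80 times the ungated CPM. After thinning each cell to 3000 transcripts, 89.7%, 84.6% and 94.2% of gated cells and 67.5% of ungated cells (interval 56.1% to 77.6%) showed at least 1 Cd24a transcript; without thinning the shares were 98.9%, 93.8%, 100% and 88.8%.

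The gated distributions were not a narrow band of high values. The middle 50% of cells lay between 4.26 and 19.2 per 10000 in gated replicate 1, between 5.56 and 29.6 in replicate 2 and between 7.72 and 29.5 in replicate 3, against 1.69 to 6.59 without the gate. Cells at 50 per 10000 or more made up 16.1%, 16.9% and 17.4% of the gated libraries and 2.5% of the ungated library (2 of 80 cells). The low parts overlapped: the plot of Cd24a in each cell shows many gated cells at levels common in the ungated library.

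**Figure D1:**
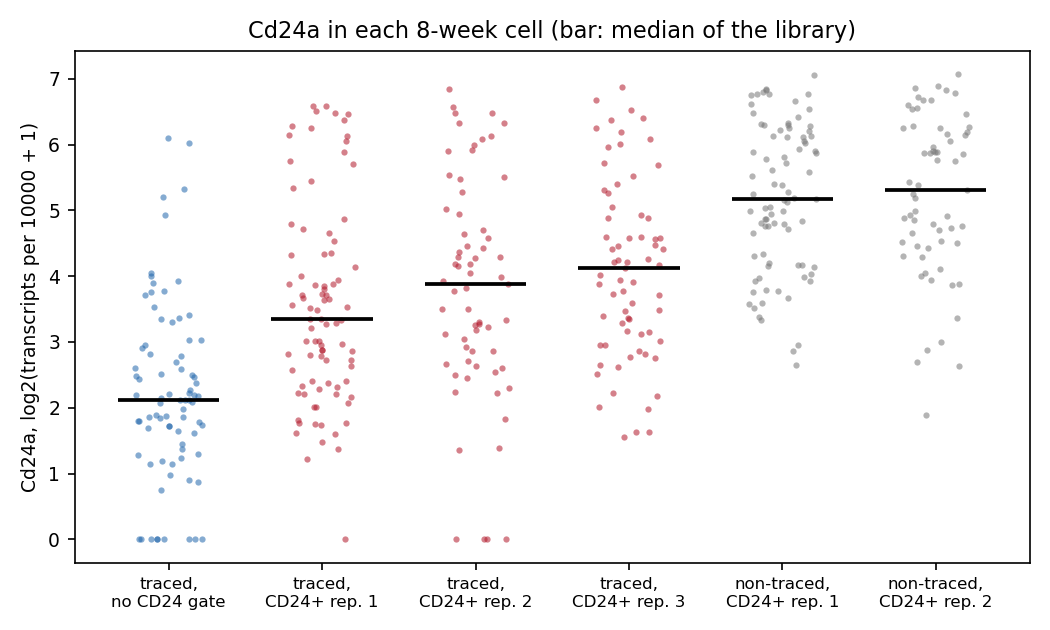
Cd24a in every kept 8-week cell, as log2(transcripts per 10000 + 1), in the ungated traced library, the 3 gated traced libraries and 2 CD24+ libraries of non-traced cells; bars are library medians. The medians of the gated traced libraries (9.14 to 16.5 per 10000) lie above the ungated median of 3.33 and below those of the non-traced CD24+ libraries (35.2 and 38.6).

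Other libraries place these levels on a scale. The 2 libraries of non-traced CD24+ cells at 8 weeks stood at 3656 and 3690 CPM, above all 3 gated traced libraries, and their median cells at 35.2 and 38.6 per 10000. The 5 ungated traced libraries taken 5 days after tamoxifen ranged from 374 to 607 CPM. The ungated 8-week value lay within that span only because of replicate 3, since the other 4 stood at 437 CPM or less. Those 5-day libraries also differ in the sex-linked transcripts they carry (Ddx3y in all 5, none in any 8-week library), so time cannot be told apart from the mice used. The traced CD24+ library at 3 weeks stood at 2960 CPM. The library labelled as non-traced CD24+ cells at 3 weeks stood at 544 CPM, with a median cell of 0. Its median depth was 5412 transcripts per cell, and spiked-in RNA was 16.6% of its counts. The reason for its Cd24a level was not tested, and that library is not used further.

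Marker lists were used to place cells. Transcripts of the abundant Paneth genes were found in cells of other kinds too. A rule of 3 detected markers and a sum of 6 at 3000 transcripts called 90.8% to 100% of gated cells and 31.2% of ungated cells positive for the Paneth list. In the gated libraries, tuft-list cells that were not high for the Paneth list still gave the Paneth list a median of 0.436%, 0.290% and 0.651% of their transcripts, with median depths of 9388, 7104 and 5623 transcripts, against 0.0280% in the 3 such ungated cells, whose median depth was 3915. Cells are therefore described mainly by a second rule, chosen after the values were seen: a cell was high for a list when the list took at least 5% (Paneth), 2% (goblet), 1% (enteroendocrine and enterocyte), 0.5% (tuft and cycling) or 0.2% (stem) of its thinned transcripts. These classes are ranges of a score, not types. Cells within 25% of a level were few for the tuft list (1, 0, 0 and 0 in gated replicates 1 to 3 and the ungated library), the Paneth list (1, 1, 1 and 0) and the enteroendocrine list (3, 2, 2 and 0), and more for the goblet list (5, 2, 5 and 3), the stem list (12, 8, 10 and 13) and the cycling list (8, 3, 7 and 16). No doublet caller was run.

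Secretory cells were a larger part of every gated library. Cells high for at least 1 of the Paneth, goblet, tuft and enteroendocrine lists made up 62.1%, 58.5% and 66.7% of the gated libraries (62.4% ± 4.11, SD, n = 3) and 26.2% of the ungated library (interval 17.0% to 37.3%), a ratio of 2.38. Cells high for none of those 4 lists nor for the enterocyte list made up 37.9%, 40% and 33.3% of the gated libraries and 71.2% of the ungated one (interval 60.05% to 80.8%). The 2 shares sum to nearly all cells, so they are 1 result and not independent.

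Among the 4 secretory lists, tuft-list cells had the largest ratio and the smallest SD. They were 16 of 87, 13 of 65 and 14 of 69 gated cells and 3 of 80 ungated cells: 18.4%, 20% and 20.3% against 3.75% (interval 0.780% to 10.6%), a ratio of the mean (19.6% ± 1.02, SD, n = 3) of 5.22. The gated tuft shares had intervals of 10.9% to 28.1%, 11.1% to 31.8% and 11.6% to 31.7%, wider than their spread. That small spread therefore cannot be read as a trait of tuft cells. Enteroendocrine-list cells were 18.4%, 24.6% and 18.8% against 6.25% (5 cells, interval 2.06% to 13.99%), a ratio of 3.30. Paneth-list cells were 16.1%, 9.23% and 18.8% against 3.75% (3 cells, interval 0.780% to 10.6%), a ratio of 3.93. In each of these lists all 3 gated shares were above the ungated share, but gated replicate 2 lay inside the ungated library's counting interval for the Paneth list. Cells high for the Paneth list alone were 6.90%, 4.62% and 2.90% of gated cells and 1 of 80 ungated cells. The ratio of the mean was 3.84. The ungated interval was 0.0316% to 6.77%, and gated replicates 2 and 3 lay inside it. The other Paneth-list cells were also high for the goblet list.

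Goblet-list cells did not separate. Their gated shares of 18.4%, 9.23% and 24.6% lay on both sides of the ungated 15%. Many of these cells were also high for the Paneth list: 8 of 16, 3 of 6 and 11 of 17 in the gated libraries and 2 of 12 in the ungated one. Such cells had median depths of 21819, 13447, 16218 and 19553 transcripts, above those of their libraries, and whether they are doublets was not tested. Cells high for the goblet list alone were 9.20%, 4.62% and 8.70% of gated and 12.5% of ungated cells (10 cells, interval 6.16% to 21.8%), so all 3 gated shares were lower, with gated replicates 1 and 3 inside that interval.

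**Figure D2:**
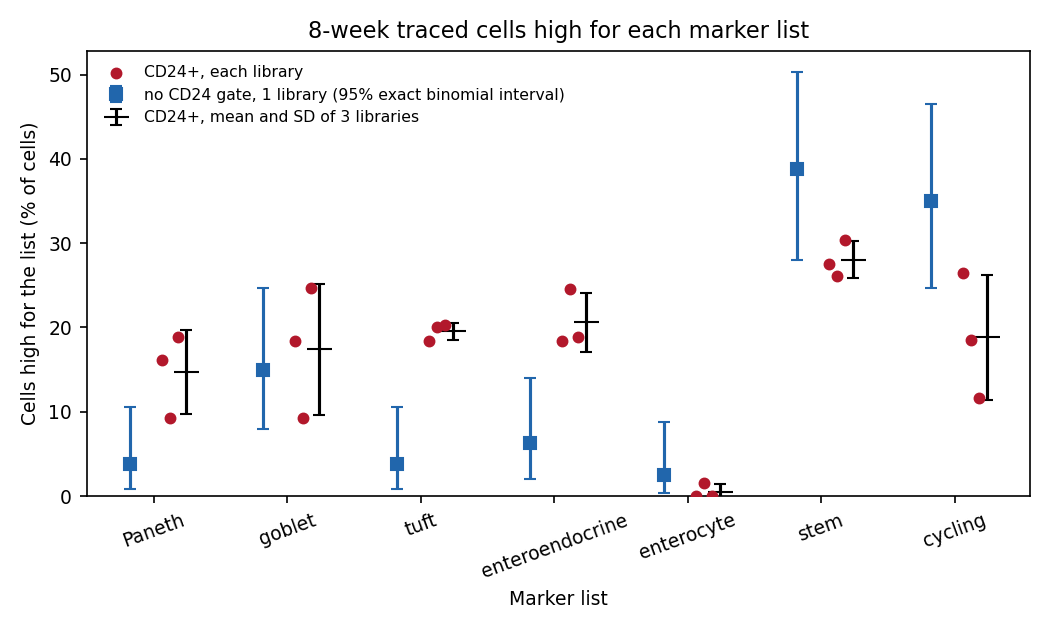
Share of 8-week traced cells high for each marker list, in percent of cells: the ungated library (squares, with its 95% exact binomial interval), each gated library (points) and the gated mean with its SD. The gated tuft points (18.4% to 20.3%) and enteroendocrine points (18.4% to 24.6%) lie above the ungated intervals, the goblet points straddle the ungated value of 15%, and the stem and cycling points lie below the ungated values.

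Stem-list and cycling-list cells were a smaller share of all 3 gated libraries, and enterocyte-list cells were too few to compare. Enterocyte-list cells numbered 0, 1 and 0 in the gated libraries and 2 in the ungated one (2.5%, interval 0.304% to 8.74%), a difference not detectable with so few cells. Stem-list cells, defined by Lgr5 and other crypt-base genes, were 27.6%, 26.2% and 30.4% of gated and 38.8% of ungated cells (interval 28.1% to 50.3%, which holds gated replicate 3). With cells of at least 5000 transcripts the stem difference shrank from -10.7 to -1.54 percentage points, and by the rule of 3 markers and a sum of 6 it turned from -11.5 to 0.752. Cycling-list cells, with S-phase and mitotic genes, were 26.4%, 18.5% and 11.6% of gated and 35.0% of ungated cells (interval 24.7% to 46.5%, which holds gated replicate 1). Among the cells high for none of the 5 lineage lists the stem share was 66.7%, 53.8% and 60.9% in the gated libraries and 52.6% in the ungated one, so all 3 gated shares were then above it.

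Summed over cells, the lists gave the same picture for tuft and Paneth cells and another for stem cells. The tuft list took 0.166%, 0.209% and 0.180% of all gated transcripts and 0.0199% of ungated ones, a ratio of 9.28. The Paneth list took 9.08%, 5.19% and 11.7% against 2.38%, a ratio of 3.63, and the enteroendocrine list 0.542%, 1.29% and 0.921% against 0.509%, a ratio of 1.8048 with replicate 1 barely above the ungated library. The enterocyte list took 0.0963%, 0.101% and 0.0945% against 0.215%. The stem list took 0.163%, 0.166% and 0.152% against 0.154%, with no separation, although fewer gated cells were high for it. In a library sum, fewer cells of a type and less RNA per cell cannot be told apart.

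Epithelial genes were present in every library and markers of other tissues at or near 0. The 6 epithelial genes Epcam, Krt8, Krt18, Krt19, Cdh1 and Vil1 were found in every library, together at 0.541% to 0.622% of gated and 0.602% of ungated transcripts. Of 14 leukocyte genes in the files, 9 to 11 were at 0 in each of the 4 libraries, among them Cd3e and Cd8a, and the list summed to 0.00170% to 0.00328% of gated and 0.000967% of ungated transcripts. The stromal and endothelial list reached at most 4.01 transcripts in a library.

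Across all genes, 7536 reached 20 CPM in the ungated library or in the gated mean. A gene was called higher when the lowest gated library was at least 2 times the ungated CPM, which 271 genes met (3.6% of those tested), and lower when the highest gated library was at most 0.5 times it, which 98 met (1.3%), 369 genes or 4.9% in all. Without gated replicate 1, 381 genes were called higher and 184 lower, and without replicate 2, 287 and 155. The median gene lay at a log2 ratio of -0.10. The ungated library was below all gated libraries for 23.7% of tested genes and above them for 39.3%. A gene under 20 CPM ungated was tested only through its gated mean, which favours a call of higher, and the reverse holds for calls of lower. This applies to the marker lists as to all genes.

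All 10 tested tuft genes of 11 in the files were called higher, against 3.6% of all genes, with a median ratio of 8.89. Ptgs1, the cyclooxygenase that starts prostaglandin synthesis, stood at 75.2, 110 and 63.4 CPM in gated replicates 1 to 3 and 5.39 CPM ungated, 15.4 times, and Ltc4s, the leukotriene C4 synthase, at 66.9, 106 and 92.8 against 7.54 CPM. Dclk1, the kinase most used as a tuft marker, stood at 290, 368 and 326 against 41.8 CPM, and Pou2f3, the transcription factor that specifies the lineage, at 48.2, 63.7 and 46.7 against 6.46 CPM. The gated values of each gene were close to each other and far from the ungated one. Trpm5, the taste-pathway cation channel, was found after thinning in 20.7%, 23.1% and 23.2% of gated and 3.75% of ungated cells. Gfi1b, below the level tested, was at 0 in the ungated library and at 15.98, 17.04 and 12.59 CPM in the gated ones, their mean 4.73 times the floor of 3 transcripts and 3.85 times the exact upper limit for a count of 0.

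Enteroendocrine genes were higher as a set but hormone by hormone they differed. Of 15 tested, 9 were called higher, against 3.6% of all genes, and none lower, with a median ratio of 3.25. Chga, the granule protein chromogranin A, stood at 719, 1629 and 1020 against 40.95 CPM, 27.4 times the ungated level, and its partner Chgb at 2466, 4004 and 2464 against 464 CPM. Neurog3, the factor that commits progenitors to the endocrine lineage, stood at 116, 119 and 143 against 5.41 CPM, 23.3 times, with 16, 7 and 9 gated cells and 1 ungated cell holding a transcript. Cck, the cholecystokinin gene, stood at 460, 536 and 395 against 17.4 CPM, but 27.0% of its gated transcripts came from 1 cell. For Chga and Neurog3 the cell with the most transcripts held 8.49% and 10.7% of the gated counts.

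Other hormones followed single cells. Gcg, which encodes glucagon-like peptides, was at 0 in the ungated library and at 266, 76.4 and 1121 CPM in the gated ones, in 6, 1 and 8 cells, with 45.4% of its transcripts in 1 cell. Sst, for somatostatin, was at 0 in the ungated library and in gated replicate 1 and at 488 and 807 CPM in replicates 2 and 3. A gene at 0 of 80 ungated cells allows, at 3 counts, a share of cells with a transcript of up to 3.75%, which bounds detection and not expression. Gip, the incretin of upper small intestine, was the exception in direction: 127, 2608 and 1439 CPM gated against 3747 CPM ungated, with 45.7% of the ungated transcripts in 1 cell, and it was not called. Ghrl, for ghrelin, spanned 102, 1749 and 658 CPM around the ungated 301 CPM. Tph1, the enzyme that makes serotonin, was called higher at 143, 201 and 72.7 against 23.3 CPM.

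Paneth genes were higher, with a wide spread between the gated libraries. Of 15 tested, 7 were called higher, against 3.6% of all genes, and none lower, and 13 had all gated libraries above the ungated one, against 23.7% of all genes. Lyz1, Paneth lysozyme, stood at 14470, 8231 and 23125 against 3934 CPM, 3.88 times. Itln1, an intelectin of Paneth granules, stood at 12676, 7900 and 19561 against 2836 CPM, 4.72 times. Pnliprp2, a pancreatic lipase-related protein, had the largest ratio of the list, 6.74, at 314, 220 and 376 against 45.0 CPM. Gated replicate 2 was the lowest gated library for each of these 3 genes. Among the α-defensins Defa24 was called higher (16468, 11742 and 22071 against 4814 CPM), while Defa21 stood at 1569, 151 and 396 against 577 CPM and Defa22 at 1230, 140 and 409 against 350 CPM. Defensin genes are near-identical copies, so how their reads were divided is uncertain.

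Goblet genes split. Zg16, a lectin of mature goblet granules, stood at 157, 1.54 and 90.2 CPM in gated replicates 1 to 3 and at 1297 CPM ungated, and Clca3, a mucus-processing protease, at 77.6, 3.09 and 93.8 against 453 CPM. Tpsg1, a tryptase, was the other member called lower, at 16.8, 12.4 and 26.5 against 71.0 CPM. Single cells weighed on these values: 35.9% of ungated Zg16 and 32.7% of ungated Clca3 transcripts lay in 1 cell, though 21 and 27 ungated cells held them. Muc2, the main secreted mucin, stood at 809, 660 and 880 against 955 CPM, and Tff3, the trefoil peptide of mucus, at 2614, 1940 and 3173 against 3252 CPM, all gated values below the ungated one but less than 2-fold away. Ccl9, a chemokine, was called higher at 199, 410 and 556 against 89.3 CPM. Spink4, a protease inhibitor, stood at 5009, 4788 and 8405 against 2830 CPM, with 61.4% of gated transcripts in cells high for both the Paneth and the goblet list. Ungated Zg16 lay almost wholly (98.6%) in cells high for the goblet list alone.

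Enterocyte genes were lower. Of 12 tested, 5 were called lower, against 1.3% of all genes, and none higher, with a median ratio of 0.449. In cells high for none of the 5 lineage lists, 9 were tested and 0 called, with a median ratio of 0.797. The ungated library was there above all gated ones for 4 of the 9. Prap1, a proline-rich secreted protein, stood at 187, 154 and 175 against 457 CPM, and Fabp2, the intestinal fatty acid binding protein, at 186, 119 and 125 against 384 CPM. Sis, the sucrase-isomaltase of the brush border, stood at 12.4, 29.5 and 31.6 against 100.4 CPM and Mttp, which loads lipid onto lipoproteins, at 22.5, 31.0 and 12.6 against 102 CPM. In 1 ungated cell lay 45.2% of the Sis and 32.3% of the Mttp transcripts.

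**Figure D3:**
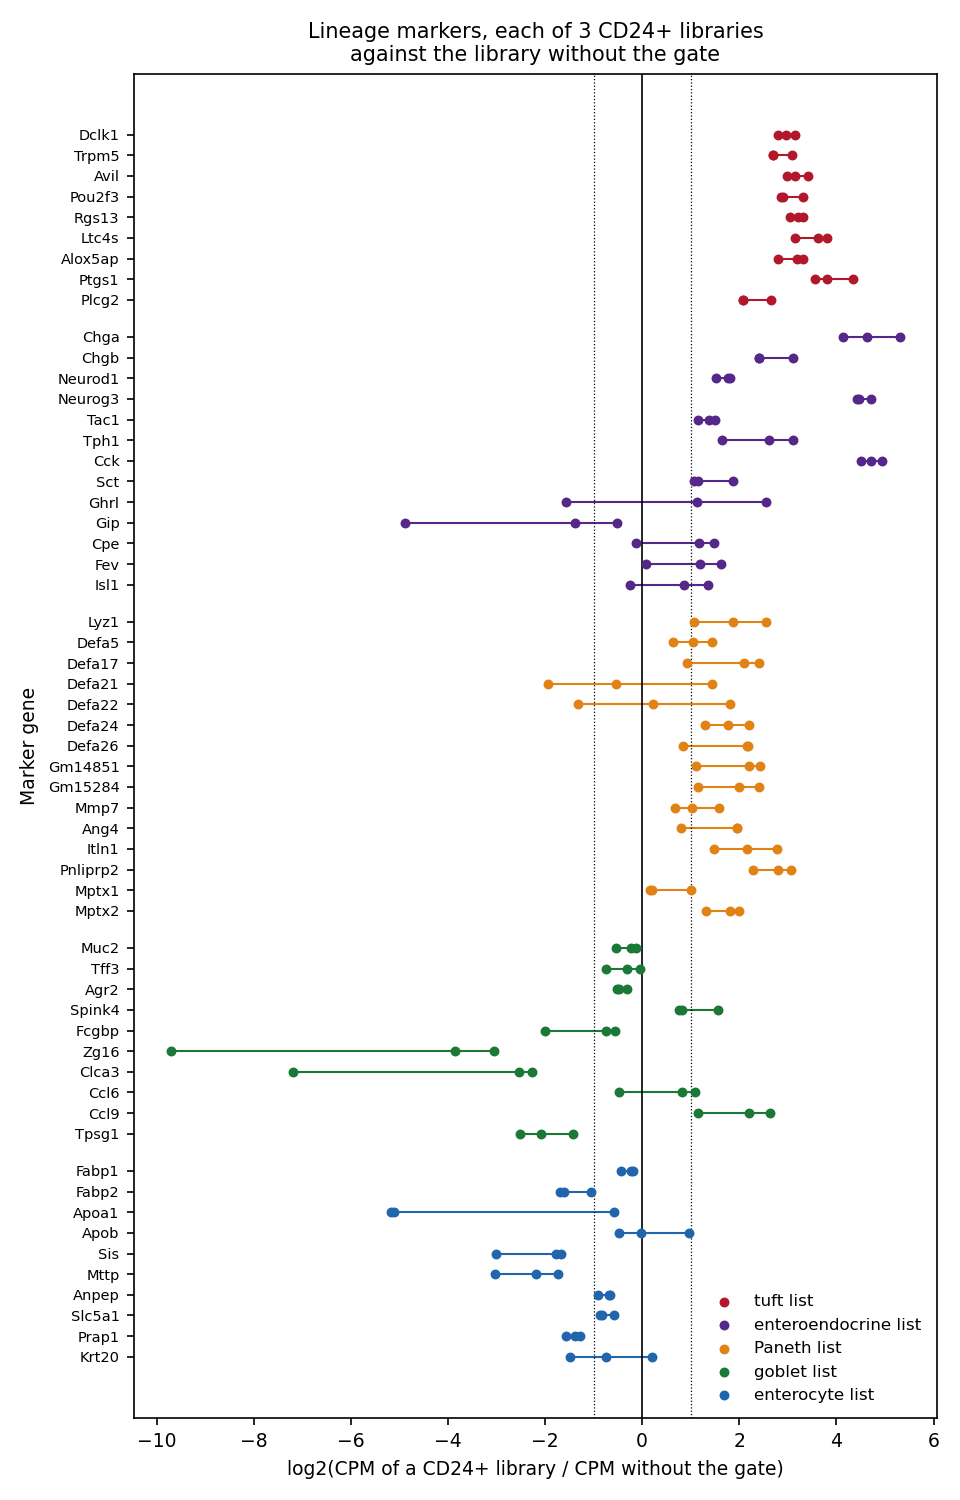
Ratio of each gated library to the ungated library for 57 lineage markers with a transcript in all 4 libraries, as log2 of the ratio of CPM; 3 points a gene, joined by a line, with dotted lines at 2-fold. Every tuft point lies above 2-fold, most Paneth and enteroendocrine points lie above 0 with Gip, Ghrl, Defa21 and Defa22 spread over both sides or below, and goblet genes run from Zg16 and Clca3 far below 0 to Ccl9 above 2-fold.

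Stem and cycling genes moved little. Olfm4 and Gkn3, both crypt-base markers, were the 2 of 11 tested stem genes called higher, against 3.6% of all genes. Olfm4 stood at 24.7, 26.3 and 27.7 against 9.67 CPM and Gkn3 at 38.7, 41.9 and 39.3 against 9.67 CPM. Both were under 20 CPM ungated and so were tested only through their gated mean, which favours such a call. The counting interval of the ratio was 1.43 to 5.92 for Olfm4, reaching below 2-fold, and 2.18 to 9.02 for Gkn3. Lgr5 itself, the receptor whose promoter drives the Cre, stood at 95.5, 134 and 92.2 against 86.7 CPM, a ratio of 1.24, and was not called. None of 25 cycling genes was called in either direction, although the ungated library was above all gated ones for 18 of them, against 39.3% of all genes. Mki67, the proliferation antigen, stood at 193, 183 and 106 against 209 CPM and Top2a, the mitotic topoisomerase, at 306, 420 and 156 against 392 CPM; gated replicate 3 was lowest for both.

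Of 17 tested regulators of cell fate, 4 were called higher, against 3.6% of all genes: Neurog3, Pou2f3, Neurod1 and Insm1, each a factor of the endocrine or tuft lineage. Insm1, a zinc-finger factor downstream of Neurog3, stood at 89.1, 105 and 98.2 against 31.6 CPM. Sox9, a factor of crypt base and secretory cells, stood at 285, 374 and 388 against 174 CPM, short of the call. Atoh1, which commits cells to the secretory fate, stood at 50.4, 35.8 and 86.2 against 56.4 CPM, on both sides of the ungated level. Among 15 surface antigens 2 were called higher, against the same 3.6%. The first, Cd24a, encodes the sorted antigen, so its call is not a separate result about surface antigens. The other was Ephb3, an ephrin receptor. Epcam, the pan-epithelial antigen, stood at 1006, 1126 and 933 against 1278 CPM. Kit, a receptor also used to sort crypt secretory cells, stood at 80.1, 104 and 78.2 against 44.2 CPM. None of the tested ER folding (14), immediate early (7) or ribosomal protein (84) genes was called. Ribosomal protein transcripts were 15.3%, 14.8% and 13.8% of gated and 17.2% of ungated totals.

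The largest ratios over all genes were led by genes that lay in tuft-list cells. Of 120 called genes with at least 50 CPM that were not carried by 1 cell, the 15 with the largest ratios held 11 with over 50% of their gated transcripts in tuft-list cells, which gave 11.4% of gated transcripts, and 3 in enteroendocrine-list cells, which gave 12.95%. Ly6g6d, a Ly6-family surface protein, led at 71.3, 93.6 and 63.4 CPM against 1.07 CPM; the ungated value was 1 transcript, so the ratio of 70.9 has a counting interval of 12.7 to 2782. Rac2, a small GTPase best known in blood cells, followed at 56.5, 40.4 and 66.8 against 1.07 CPM, also 1 transcript (50.8 times, interval 9.13 to 1994). Spib, an Ets-family transcription factor, stood at 238, 344 and 246 against 21.7 CPM, and Lrmp, a membrane protein of the endoplasmic reticulum, at 293, 368 and 267 against 25.2 CPM. Tuft-list cells held 86.3% of the gated Spib and 90.9% of the gated Lrmp transcripts. Siglec5, a sialic acid-binding lectin (52.3, 46.7 and 74.2 against 3.22 CPM, 17.9 times, interval 6.14 to 86.5), Matk, a Csk-type kinase (54.4, 52.8 and 51.8 against 4.30 CPM), Tuba1a, an α-tubulin (142, 204 and 139 against 13.98 CPM), and Sh2d7, an adaptor (104, 164 and 109 against 12.99 CPM), were of the same group. Ptgs1 and Ltc4s were also among the 11.

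The 3 genes in enteroendocrine-list cells were Chga, Rab3c, a vesicle GTPase, and Pgc, a pepsinogen. Rab3c stood at 31.8, 83.1 and 53.4 against 3.22 CPM (17.4 times, interval 5.97 to 84.1). Pgc, at 0 in the ungated library, stood at 40.7, 77.7 and 36.8 CPM in the gated ones. Their mean was 16.1 times the floor of 3 transcripts, and 13.1 times the exact upper limit for a count of 0. Neurog3, the last of the 15, differed from all of these: 65.5% of its gated transcripts lay in cells high for none of the 5 lineage lists. Over all 271 genes called higher, 82 had over 50% of their gated transcripts in tuft-list cells, 57 in enteroendocrine-list cells and 26 in cells high for the Paneth or goblet list. Another 2 did so in the 1 enterocyte-list cell, 20 in cells high for none and 84 in no single class. Tuft-list cells gave 11.4%, enteroendocrine-list cells 12.95% and cells high for none 45.8% of all gated transcripts. The markers that define the classes are among the 271 genes, so the split is a description. Several of the tuft-list genes are also known from blood cells, where the leukocyte gene Ptprc stood at 5.08, 4.64 and 10.1 CPM in the gated libraries and 0 in the ungated one, and Cd3e and Csf1r at 0 in all 4.

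The libraries outside the comparison gave these genes values of their own. Spib stood at a mean of 625 CPM in the 2 non-traced CD24+ libraries at 8 weeks, 490 CPM in the traced CD24+ library at 3 weeks and 6.95 CPM over the 5 ungated 5-day libraries. Chga stood at 341, 20.7 and 54.2 CPM and Neurog3 at 12.2, 41.9 and 23.0 CPM in the same order. Neither endocrine gene was thus as high in those CD24+ libraries as in the 3 gated traced ones (719 CPM or more for Chga, 116 CPM or more for Neurog3), while Spib was higher there (344 CPM or less in the gated traced ones); these differences were not tested.

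**Figure D4:**
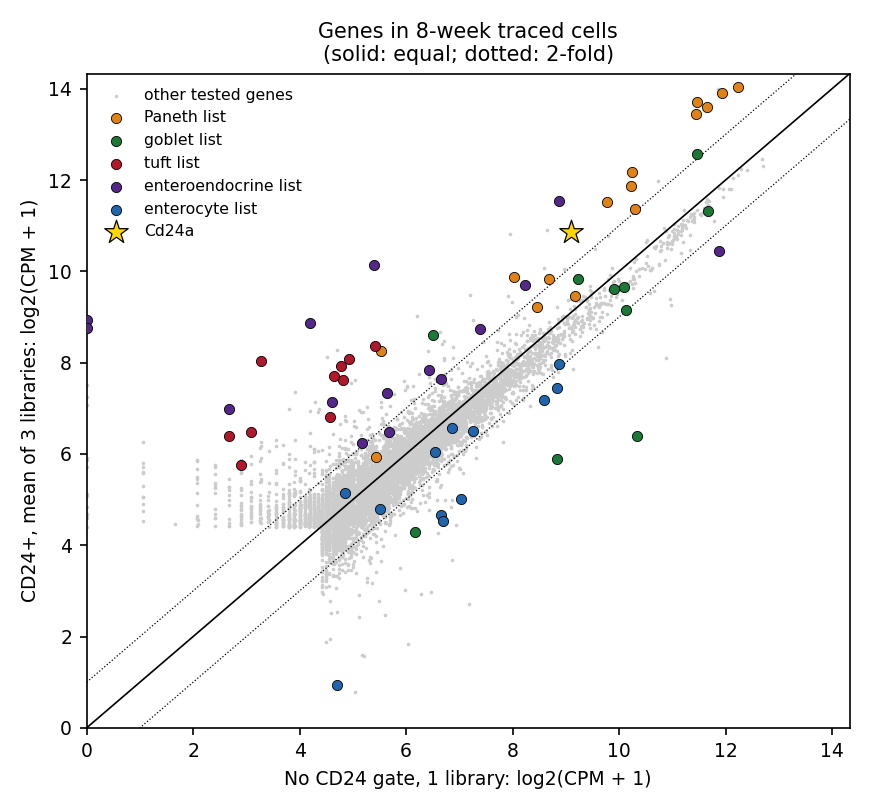
Each of 7536 tested genes by its level in the ungated library and its mean over the 3 gated libraries, both as log2(CPM + 1); dotted lines mark 2-fold. Tuft, enteroendocrine and Paneth genes and Cd24a (544 against 1863 CPM) lie above the 2-fold line for the most part, and most enterocyte genes and the goblet genes Zg16 and Clca3 below the line of equal level.

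Of the 98 genes called lower, 62 had over 50% of their ungated transcripts in cells high for none of the lists and 20 in the 2 cells high for the enterocyte list. The median share in cells high for none was 66.0%, below the 73.05% that these cells gave of all ungated transcripts. Dmbt1, a scavenger-receptor glycoprotein of crypt epithelium, was the most abundant of the 15 with the largest ratios: 903, 629 and 484 against 1994 CPM, with 97.6% of its ungated transcripts in cells high for none. Cps1, the mitochondrial enzyme that starts the urea cycle, stood at 26.1, 45.0 and 21.4 against 94.8 CPM, and Prim1, a DNA primase subunit, at 32.7, 32.6 and 34.0 against 83.0 CPM. Hnf4g, a nuclear receptor of absorptive cells, stood at 31.9, 26.3 and 31.5 against 81.0 CPM, Isx, an intestinal homeobox factor, at 42.2, 40.3 and 30.2 against 98.1 CPM, and Tm4sf5, a tetraspanin-like protein, at 55.2, 52.7 and 41.5 against 128.4 CPM. The gated values of Cps1 and Dmbt1 were the most spread, and in every one of these genes all 3 lay under the ungated value. Mylk, the myosin light chain kinase, had the lowest ratio, 0.191 (23.99, 17.03 and 13.87 against 95.6 CPM), followed by Coro2a, an actin-binding coronin, at 0.243 (26.1, 29.4 and 27.7 against 114 CPM). The rest of the 15 were Tpsg1, Fabp2, Prap1, Gstp1, Lrpprc, Pnp2 and Glod5, with ratios of 0.261 to 0.399. They came from 27 eligible genes, and 20 more were set aside because 1 ungated cell gave at least 25% of their transcripts.

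Cd24a differed between the classes, with tuft-list cells on top in all 4 libraries. Their medians were 72.5, 69.4 and 69.5 transcripts per 10000 in gated replicates 1 to 3 and 64.2 in the 3 ungated cells. They gave 51.4%, 49.9% and 38.5% of gated and 13.8% of ungated Cd24a transcripts. Paneth-list cells had gated medians of 12.6, 20.1 and 17.5 and an ungated one of 14.2 (3 cells). Enteroendocrine-list cells had 5.996, 9.73 and 8.73 in the gated libraries, all below the 12.7 of the 5 ungated cells. Goblet-list cells had 11.7, 21.3 and 18.04 against 5.63 in 12 ungated cells, and those high for the goblet list alone 9.13, 22.8 and 15.1 against 3.98 in 10 cells.

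Leaving out the tuft-list cells, Cd24a stood at 827, 1187 and 1398 CPM in the gated libraries (1137 ± 289, SD, n = 3) and at 476 CPM in the ungated one, a ratio of 2.39. In cells high for none of the 5 lists it stood at 592, 710 and 1201 CPM (834 ± 323, SD, n = 3) against 308 CPM, a ratio of 2.70, with medians of 4.94, 5.94 and 7.72 against 2.69 per 10000. The gated cells were above the ungated ones in each of these subsets. Within them, stem-list cells had medians of 4.31, 5.94 and 7.42 against 3.74, and the cells not high for the stem list 5.62, 9.66 and 16.5 against 1.58. Gated replicate 3 was the highest and replicate 1 the lowest in all of these subsets, and the plot of Cd24a by marker class shows the spread.

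**Figure D5:**
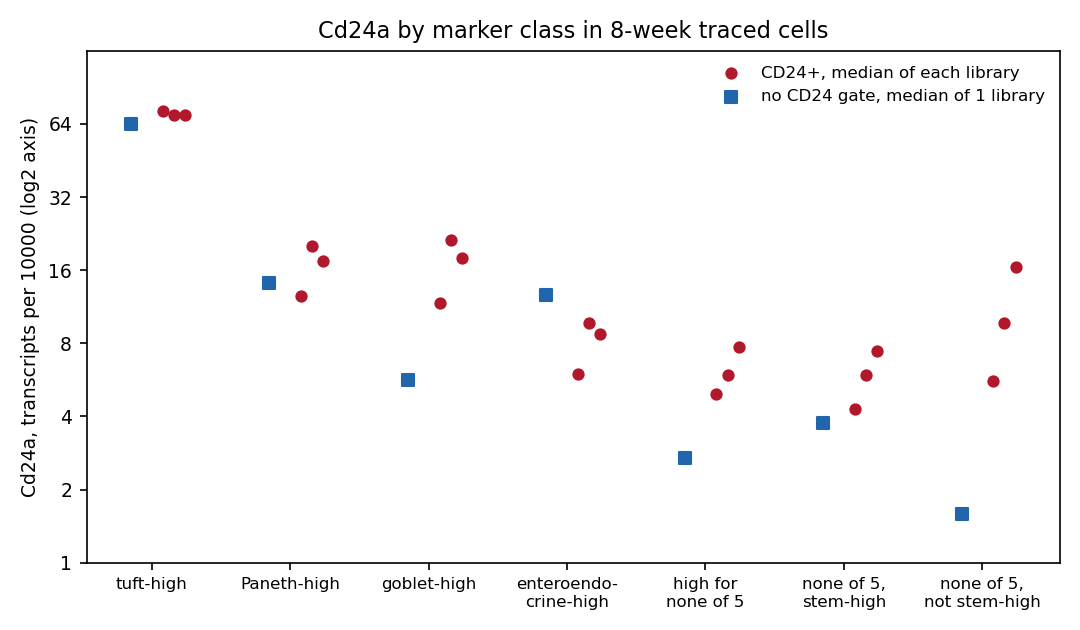
Median Cd24a per 10000 transcripts by marker class, on a log2 axis, in each gated library (points) and the ungated library (squares). Tuft-list cells are highest in all 4 libraries (64.2 to 72.5), enteroendocrine-list cells are lower in the gated libraries (5.996 to 9.73) than in the ungated one (12.7), and cells high for none of the lists are higher in the gated libraries (4.94 to 7.72) than in the ungated one (2.69).

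Ranked on Cd24a, the ungated library alone held most of its secretory cells at the top. Of its 20 cells with the most Cd24a (6.76 to 67.2 per 10000), 14 were high for a secretory list: 5 goblet, 5 enteroendocrine, 3 Paneth and 3 tuft, a cell counting in each list it was high for. That took in all 5 enteroendocrine-list, all 3 Paneth-list and all 3 tuft-list cells of the library. In the next 3 sets of 20 cells, ranked downward, 2, 3 and 2 cells were high for a secretory list, all of them goblet. The 2 enterocyte-list cells were among the 20 lowest, and stem-list cells numbered 7, 12, 10 and 2 from the highest to the lowest set.

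Cells high for none of the 5 lists also differed between gated and ungated libraries. These were 33, 26 and 23 gated and 57 ungated cells, in which 189 of 7435 tested genes were called higher (2.54%) and 37 lower (0.498%), 226 or 3.04% in all. Of 8 enteroendocrine genes tested in them 6 were called higher, and of 8 tuft genes 7. All of these tuft genes, and all of these enteroendocrine genes but Gip, lay under 20 CPM in the ungated cells. They were thus tested only through their gated mean, which favours a call of higher, and the counts are a description. Among called genes with at least 50 CPM and not carried by 1 cell, Reg4 and Tm4sf4 had the largest ratios, followed by Neurog3. Neurog3 stood at 148, 148 and 261 CPM and Insm1, also an endocrine factor, at 84.8, 40.6 and 115 CPM. Neurod1, a factor that follows Neurog3, stood at 68.4, 30.8 and 84.6 CPM. These endocrine factors were each at 0 in the ungated cells. With the ungated level set at the floor of 3 transcripts, the gated means were 42.2, 18.2 and 13.9 times higher, and 34.3, 14.8 and 11.3 times higher with the exact upper limit for a count of 0. Reg4, a lectin of enteroendocrine and secretory cells, stood at 59.3, 58.2 and 137 against 1.47 CPM (1 transcript, 57.8 times, interval 10.4 to 2269), and Tm4sf4, a tetraspanin-like protein, at 66.2, 115 and 227 against 2.94 CPM (46.2 times, interval 12.8 to 381).

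Some goblet, secretory and stem genes were also higher in these cells. Of 7 goblet genes tested, 2 were called higher and 1 lower, against 2.54% and 0.498% of all genes. Those higher were Tff3 and Fcgbp, and Clca3 was lower, at 1.59, 0 and 8.89 against 20.6 CPM. Tff3 stood at 435, 767 and 1383 CPM in the gated cells high for none and 156 CPM in the ungated ones, and Foxa2, a forkhead factor of secretory cells, at 38.3, 58.3 and 86.4 against 17.6 CPM; both were called higher. Gkn3 (49.8, 64.5 and 83.7 against 13.2 CPM) and Olfm4 (41.5, 36.7 and 38.6 against 13.2 CPM) were called higher here too. Both, like Foxa2, were under 20 CPM in the ungated cells and so were tested only through their gated mean. Cdkn1a, the p21 inhibitor of the cell cycle, stood at 91.1, 172 and 199 against 23.6 CPM. Dmbt1 was again lower, at 1134, 1197 and 964 against 2663 CPM, as were Mylk and Coro2a. Tuft genes at low levels, such as Dclk1 at 56.4, 24.6 and 97.4 against 4.41 CPM, were called higher in these cells as well. The tuft list took 9.28 times as large a share of the gated as of the ungated library sums, and the part of RNA from other cells in these values was not tested. Neurog3, in contrast, sat in few cells: 7, 3 and 4 of the gated cells high for none held it.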

How the data were processed

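CEL-seq of sorted cells gave 96 barcodes a library. The authors deposited expected counts per gene and cell, in 1 file a library and in a combined table: by their values, each is a number of distinct molecular barcodes, of 256, corrected for repeats. Listed without a role in the submitters' processing notes are the aligner BWA, version 0.6.2-r126, and the build mm10. The library files were used, and the combined table served only to match libraries; 96 of its columns were given no sample and were not used.

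Spiked-in RNA was removed, cells with at least 3000 transcripts were kept (kept totals 648144 to 1383151 a library), and counts were summed or, rounded, thinned to 3000 a cell with a fixed seed. Genes with at least 20 CPM in the ungated library or the gated mean were compared, with a gene called when all 3 gated libraries passed 2-fold. Named genes were Cd24a, the list markers and the 15 of largest ratio in each direction with at least 50 CPM and under 25% of counts in 1 cell. A ratio against 0 used a floor of 3 transcripts. Exact 95% binomial and Poisson intervals cover counting error only. With 1 ungated library no test was run. The members and lists were chosen with earlier results of these data known, and the levels that define list cells after the values were seen. Scripts used Python 3.11.15, numpy 2.4.6, pandas 2.3.3, scipy 1.17.1, matplotlib 3.10.9 and R 4.3.3, with edgeR 4.0.16 and DESeq2 1.42.0 only for scaling factors in alternatives; they were tested on simulated data. A few items that the rules above would name are not reported here.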

Additional observations from a re-analysis of the deposited data

Results flagged for a closer look

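Cd24a in the ungated traced libraries at 5 days had 1 library far from the others: replicate 3 stood at 607 CPM and the other 4 at 374 to 437 CPM. The gap, as a share of the range, passed Dixon's critical value of 0.71 for 5 samples, which chance passes in about 1 group in 20. The median cell of that library held 3.12 Cd24a transcripts per 10000, inside the span of the other 4 (2.24 to 3.56). The gated against ungated values at 8 weeks do not use these libraries, which are only set beside them.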

How the results depend on the processing

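No paired analysis was possible because the ungated group holds 1 library, so the groups share fewer than 2 replicate numbers. The number of genes called higher was 478 at a fold of 1.5, 129 at a fold of 3, 973 without a filter and 67 at 100 CPM or more, against 271. The number called lower was 377, 31, 587 and 23 under the same settings and 37 in cells high for none of the lists, against 98, and ranged from 126 to 184 when 1 gated library was left out. Of all calls 73.4% were higher, 80.1% with edgeR's scaling (TMM) and 79.1% with DESeq2's. Cd24a moved from a log2 ratio of 1.78 to 1.44 in cells high for none of the lists.

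The gated minus ungated share of cells passing 3 markers and a sum of 6 moved, in percentage points, as follows. For the Paneth list (64.5) it was 53.3 at 5000 transcripts a cell, 17.5 unthinned, 55.7 with another seed, 34.8 at a sum of 3 and 49.4 at a sum of 12. For the tuft list (18.4) it was 19.3 at 5000 transcripts, 21.4 unthinned, 19.4 at a sum of 3 and 15.8 at a sum of 12. For the enteroendocrine list (18.5) it was 38.2 unthinned and 24.6 at a sum of 3. For the enterocyte list (-18.0) it was -21.3 unthinned, -14.5 with another seed, -27.5 at a sum of 3 and -7.34 at a sum of 12. The stem difference (-11.5) reversed to 0.752 at 5000 transcripts and was -7.85 at a sum of 12.

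For cells high for a list, alternatives added after seeing the data gave tuft differences of 18.4 at 0.5 times the level, 13.6 at 1.5 times and 18.1 at 5000 transcripts. Stem differences were -7.48, -6.24 and -1.54 under the same settings and -7.85 unthinned; cycling differences were -26.6 at 0.5 times the level, -8.29 at 1.5 times and -8.67 unthinned; the enterocyte difference was -3.07 at 1500 transcripts. The goblet difference of 2.42 ranged from -1.19 without gated replicate 3 to 6.51 without replicate 2, so it has no stable direction. In cells high for none of the lists Tac1 reversed to a log2 ratio of -0.27 and Tpsg1 to 1.75. The causes of these changes were not tested. Of all values for single genes, 1572 kept to within the spread of the gated libraries, 344 moved and 2 reversed. The 1 ungated library, and 3 to 5 ungated cells behind its Paneth, tuft and enteroendocrine values, limit precision.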
